A study of Mus musculus with 2 samples.

Results

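Chromatin contacts were described at 9 NOTCH pathway genes: the receptors Notch1 and Notch2, the ligands Jag1, Jag2 and Dll1, the glycosyltransferase gene Rfng, and the target genes Hes1, Hey1 and Heyl. The genes were chosen by name, from 21887 protein-coding genes placed on a chromosome in the gene table. A contact belonged to a gene where one of its anchor bins lay within 10 kb of either annotated end of the gene. By this rule 20 of 4872 listed contacts in the DKO list and 22 of 5811 in the WT list lay at these genes.

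Hi-C, in which DNA fragments that touch in crosslinked nuclei are ligated and read as pairs, was run on sorted hair matrix keratinocytes at postnatal day 4.5. Matrix cells divide in the follicle bulb and give rise to the shaft of the hair and the sheath around it. The first library (DKO) was labelled Tet2/Tet3 DKO with Krt14-Cre, a Cre recombinase driven by the promoter of a basal keratin, so deletion is directed to keratinocytes and not to the whole animal. The second library (WT) was labelled wild type and came from the same cell type and age, and the labels do not say how many mice were pooled or whether WT mice carried the Cre. TET2 and TET3 oxidise 5-methylcytosine, the methylated base of CpG dinucleotides. There was 1 library per genotype, so no test or replicate error was possible, and every difference below is between these libraries and cannot be assigned to the genotype. Contacts measure no transcripts, so neither the cell type nor the deletion could be checked from marker genes.

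Each list holds enriched pixels. A pixel is the contact of 1 bin of 5 kb with another on the same chromosome, called by the authors' tool where its count exceeded its surroundings. Enrichment is the observed contact count divided by the count expected from the donut-shaped neighbourhood, and its interval is the exact 95% Poisson interval of the observed count, for counting error only. The sequencing depth is unknown. At the 1940 pixels listed in both libraries the expected counts in DKO were a median 0.973 of those in WT (quartiles 0.904 and 1.05). A gene without a pixel has no called contact, which says nothing of contacts below the caller's threshold. Because each count is summed over many cells, contact in fewer cells and weaker contact per cell cannot be told apart.

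NOTCH receptors are cut when a ligand of the Jagged or Delta-like family on a neighbouring cell binds them. The freed intracellular part enters the nucleus and joins the DNA-binding protein RBPJ to switch on targets such as the HES and HEY repressor genes. Fringe enzymes such as RFNG add a sugar to the receptor that changes which ligands it answers to. In the hair follicle, signalling of this kind in the matrix is known for its part in keeping differentiating follicle cells in their fates.

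The table of RefSeq promoter windows (GRCm38.p6), each from 250 bases before to 50 after a gene start, held 7 windows for 6 of the 9 genes: Notch1, Notch2, Jag1, Jag2, Rfng and 2 starts of Dll1. Hes1, Hey1 and Heyl had no window there. The starts of Notch1 and Rfng lay in bins that were anchors in both lists, though not in both at the stricter threshold given below. The bases just before the annotated gene are therefore shown for these genes, 5′ to 3′ on the minus strand on which both lie, with each CpG in capitals. The Notch1 stretch is chr2:26503823-26504072 and the Rfng stretch is chr11:120784252-120784454.
Notch1: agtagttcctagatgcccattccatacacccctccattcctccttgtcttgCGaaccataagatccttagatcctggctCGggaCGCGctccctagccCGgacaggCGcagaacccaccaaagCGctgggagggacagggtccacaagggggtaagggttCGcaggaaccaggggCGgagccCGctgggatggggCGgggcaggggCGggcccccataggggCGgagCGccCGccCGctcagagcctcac
Rfng: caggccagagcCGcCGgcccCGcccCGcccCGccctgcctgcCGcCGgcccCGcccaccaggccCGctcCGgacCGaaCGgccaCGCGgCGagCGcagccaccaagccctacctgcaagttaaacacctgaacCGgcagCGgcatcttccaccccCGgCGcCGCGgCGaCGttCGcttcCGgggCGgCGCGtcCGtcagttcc
The bin of the Rfng start also lay within 5 kb of ends of Dus1l and Gps1, so the Rfng stretch may belong to a neighbouring gene as well. The 250 bases at Notch1 held 16 CpG and the 203 bases at Rfng held 30. Over the full windows of 300 bases, the CpG count was 23 at Notch1, 44 at Rfng, 63 at Jag2, 41 at Notch2, 22 at Jag1, and 24 and 15 at the starts of Dll1. The median over all 32851 windows of the table was 7 (quartiles 3 and 20), so all but the second Dll1 start were above the upper quartile. The core letters bound by RBPJ, TGGGAA, were searched on both strands and were in none of the 7 windows, against 25.6% of all windows. The letters AGGNGGC, part of the CTCF motif, were also searched on both strands. They were found 4 times at Jag2, once each at Jag1 and Notch2, and not in the other windows, against 29.4% of all windows with at least 1 match. These are descriptions of letters, and neither methylation nor binding was measured here.

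Called pixels lay at 6 of the 9 genes in DKO and at 4 of the 9 in WT, against 20.1% and 21.2% of all 21887 protein-coding genes. Notch1, Rfng, Hes1 and Heyl had pixels in both lists (12.9% of all genes). Jag1 and Jag2 had a pixel in DKO alone (7.14% of all genes), and no member had one in WT alone (8.24% of all genes). Notch2, Dll1 and Hey1 had none in either list. The difference of 2 genes rested on 1 pixel each. At a false discovery rate (FDR) under 0.01 in all 4 neighbourhoods, 3 genes were left in DKO (Notch1, Rfng and Heyl) and 4 in WT (the same genes and Hes1). With 9 genes, chosen with earlier results known, these counts are descriptions.

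**Figure D1:**
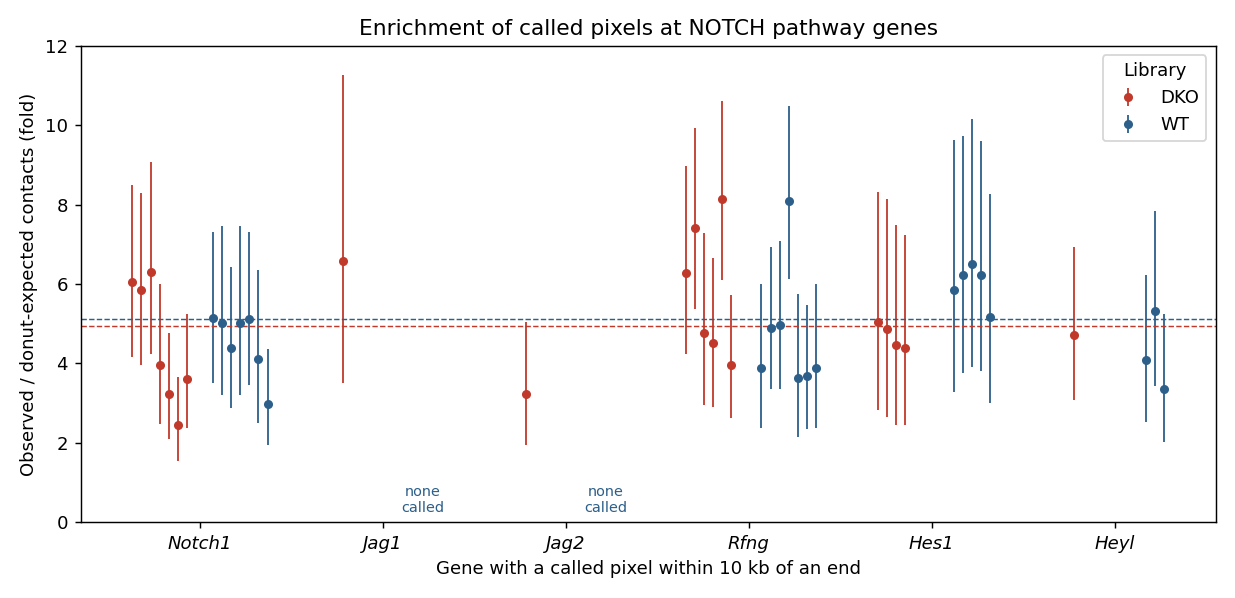
Enrichment (observed over donut-expected contacts, fold) of every called pixel at the 6 genes with a pixel, DKO in red to the left of WT in blue for each gene; points are single pixels, bars their exact 95% Poisson intervals, and dashed lines the median of all pixels of each list. The highest pixels, at Rfng, stand at 8.14 in DKO and 8.09 in WT, while Jag1 and Jag2 have 1 pixel each in DKO and none in WT.

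The 20 DKO pixels had a median of 25 observed contacts and the 22 WT pixels a median of 22.5, against 18 over all pixels of each list. Notch1 gave 7 pixels in each list, and Rfng 6 in DKO and 7 in WT, many in adjoining bins. The medians of the members thus rest largely on these genes, and the counts were not matched for span. Median enrichment was 4.74 at the members in DKO and 4.99 in WT, close to the medians of all pixels, 4.95 in DKO and 5.11 in WT. In place of the donut, the bottom-left neighbourhood gave the members a median of 4.61 in DKO and 4.58 in WT, and the vertical one 4.16 in DKO and 3.79 in WT, both in the other order. The members' pixels spanned a median of 62.5 kb in DKO and 87.5 kb in WT. With the gene end inside the anchor bin the order turned, to 197.5 kb in DKO and 115 kb in WT. The median over all pixels was 100 kb in the DKO list, against 115 kb in the WT list. Spans at the members ran from 40 to 340 kb in DKO and from 35 to 340 kb in WT. The shortest were at Heyl, Notch1, Rfng and Jag2, and the longest at Hes1 and Jag1. With gene ends within 20 kb there were 22 pixels in DKO and 26 in WT, and no gene was added in either list. The pixel farthest inside the limit was that of Heyl listed at the same bins in DKO and WT, 8.56 kb from the gene end. The nearest outside lay 10.7 kb from Rfng in both lists, and 12.1 kb from Notch1 in WT with 19 contacts at 4.28 times expected.

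Notch1, on chromosome 2 (26457902 to 26503822), encodes the main NOTCH receptor of keratinocytes and had 7 pixels in each list. In both lists they formed 2 loops, a loop here being pixels joined where both anchors lay within 20 kb, and both loops were shared. The longer loop ran from bins 7.9 and 2.9 kb beyond the 3′ end of the gene, between 26445001 and 26455000. It crossed the whole gene to bins upstream of its start between 26560001 and 26580000. Its pixels had 33, 31, 29 and 22 contacts in DKO, against 31, 24, 26, 24, 30 and 20 in WT. The pixel with most contacts joined the same bins in both lists and stood at 6.05 times expected in DKO (4.16 to 8.49) and 5.15 in WT (3.50 to 7.31). The counts of the lists overlap. The lower anchor also lay within 5 kb of an end of Sec16a, a gene of vesicle export from the endoplasmic reticulum. The lower bin of the pixel with most contacts was not within 5 kb of Notch1. Notch1 was the only protein-coding gene between the anchors. The upper anchor held no gene end in DKO. In WT the outermost of its pixels, with 20 contacts, reached within 5 kb of an end of Egfl7, which encodes a secreted endothelial factor.

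The shorter Notch1 loop joined the start of the gene to a stretch that lies upstream of it. In DKO it had 3 pixels with 25, 23 and 27 contacts, at 3.23, 2.44 and 3.61 times expected, from bins starting at 26495001, 26500001 and 26505001 to bins starting at 26545001 and 26550001. In WT it was a single pixel from the bin of the gene start to 26550001, with 26 contacts at 2.98 times expected (1.95 to 4.37). The bin from 26500001 to 26505000, which holds the Notch1 promoter shown above, was thus an anchor in both lists, but with different partner bins 5 kb apart. The highest FDR of its pixel was 0.0404 in DKO and 0.0514 in WT, so neither stayed at an FDR under 0.01. The shorter loop was thereby lost in WT. The partner stretch held no protein-coding gene, and the nearest, Egfl7, was 26.1 kb from the bin at 26550001. Both loops thus reached into the interval between Notch1 and Egfl7.

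Notch2 (chromosome 3, 98013538 to 98150367), the other receptor among the members, had no called pixel. The nearest anchor bin lay 64.6 kb from an end of the gene in DKO and 134 kb in WT, and no called loop in either list enclosed it.

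**Figure D2:**
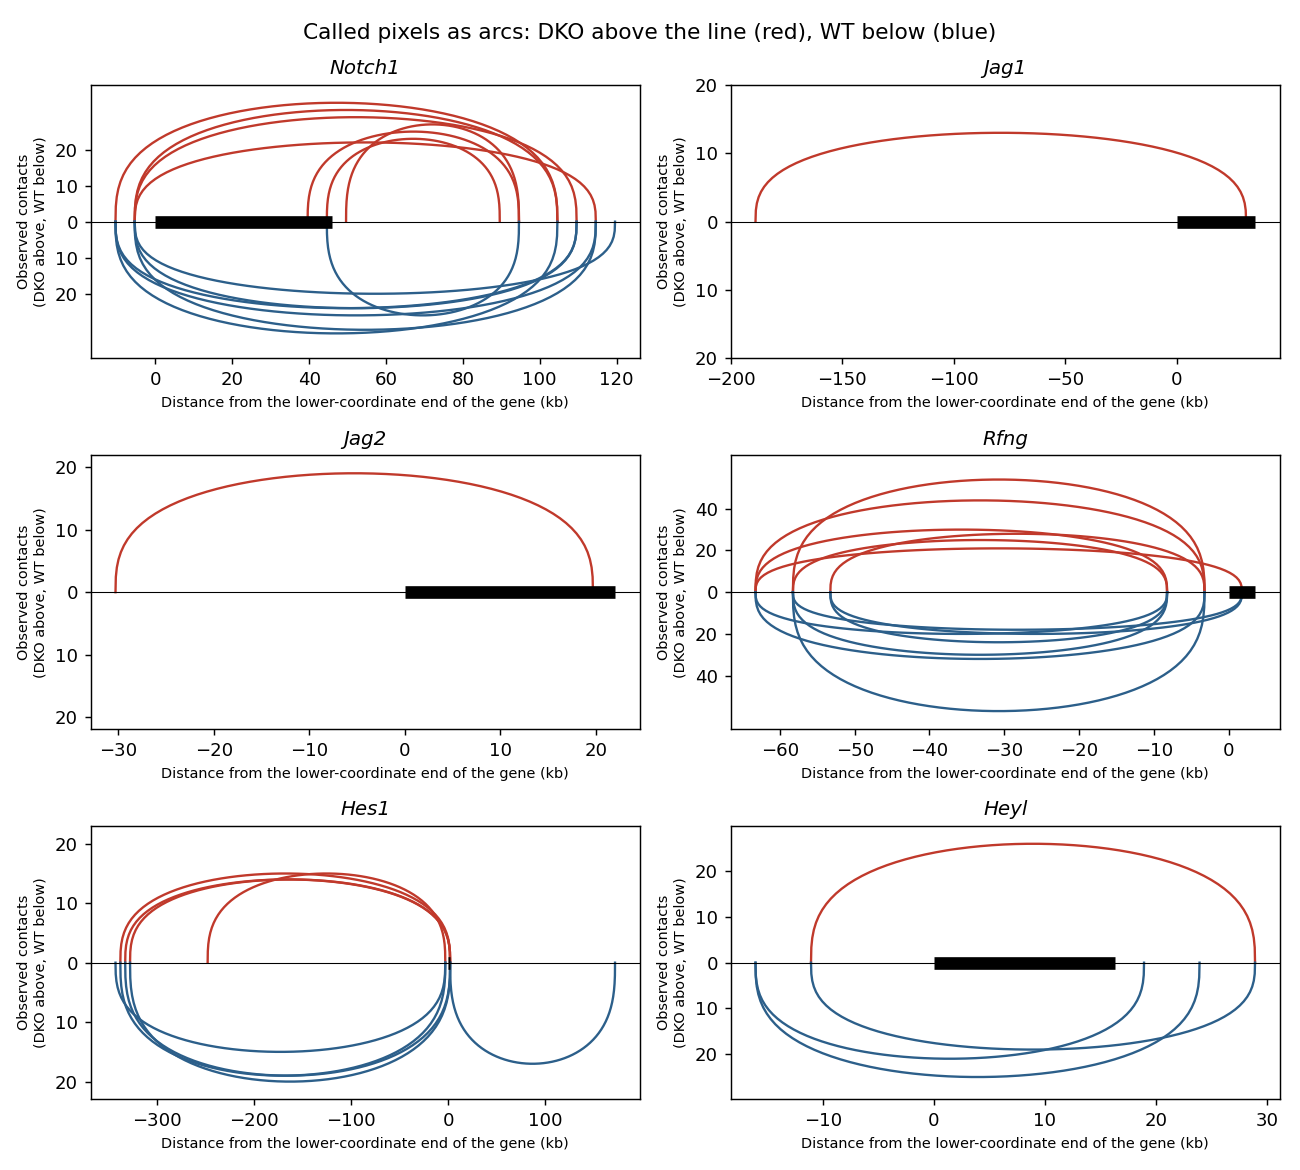
Called pixels at the 6 genes drawn as arcs between anchor bin centres, with DKO above the line and WT below it; the horizontal axis is the distance from the lower-coordinate end of each gene (kb), arc height is the observed contact count, and the black bar is the gene. The Notch1, Rfng, Hes1 and Heyl arcs appear on both sides of the line, and the Hes1 arc of 170 kb to the right appears below it alone.

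Jag1 (chromosome 2, 137081451 to 137116520), a ligand that activates NOTCH in neighbouring cells, had 1 pixel in DKO. It joined the bin from 137110001 to 137115000, inside the gene and 1.52 kb from its start, over 220 kb to a bin from 136890001 to 136895000. It had 13 contacts at 6.59 times expected (3.51 to 11.3), and 96.0% of DKO pixels had at least as many contacts. The partner bin held ends of Mkks and Slx4ip, which encode a chaperonin-like protein of the cilium base and a telomere factor. No protein-coding gene lay wholly between the anchors. Genes that reach into the interval from an anchor, as Jag1 itself does, are not counted there. The highest of its 4 FDRs was 0.0893, near the limit of 0.1 of the lists, and the pixel was lost at an FDR under 0.01 and at a minimum of 20 contacts. The nearest WT pixel had an anchor 3340 kb away, so no neighbouring contact was listed in WT.

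Jag2 (chromosome 12, 112907803 to 112929812), the second Jagged ligand, likewise had 1 pixel in DKO. Its bin from 112925001 to 112930000 holds the start of the gene, and the partner bin from 112875001 to 112880000 lay 27.8 kb beyond the other end. The pixel had 19 contacts at 3.23 times expected (1.95 to 5.05). The partner held no gene, and the nearest was Gpr132, 6.58 kb away. Nudt14 also had an end within 5 kb of the Jag2 bin. The highest FDR was 0.0918, and this pixel too was lost at an FDR under 0.01 and at a minimum of 20 contacts. The nearest WT pixel was 85 kb away, with 22 contacts.

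Dll1 (chromosome 17, 15367354 to 15376932), a Delta-like ligand, had no pixel at its ends, with the nearest anchor 83.1 kb away in DKO and 88.1 kb in WT. It lay instead inside a shared loop that joined bins starting at 15065001 and 15465001, 400 kb apart. The highest pixel of that loop had 19 contacts in DKO at 7.08 times expected (4.27 to 11.1), against 20 in WT at 8.65 (5.29 to 13.4). The loop had 5 pixels in DKO and 2 in WT. Dll1 and Fam120b, a coactivator gene, were the only protein-coding genes between its anchors, and neither anchor was within 5 kb of a gene end.

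Rfng (chromosome 11, 120780745 to 120784251), which encodes radical fringe, had the highest counts of all members. It had 6 pixels in DKO and 7 in WT, all in 1 shared loop of 45 to 65 kb toward lower coordinates. The highest pixel joined the same bins in both lists, 120720001 to 120725000 and 120775001 to 120780000. It had 54 contacts in DKO at 8.14 times expected (6.11 to 10.6) and 57 in WT at 8.09 (6.13 to 10.5). Counts as high were found at 10 of 4872 DKO pixels and 8 of 5811 WT pixels. The other pixels had 21 to 44 contacts in DKO and 18 to 32 in WT, so the ranges overlap.

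The Rfng anchor lies in a dense row of genes, and the contact is not that of Rfng alone. The bin of the highest pixel ended 0.745 kb from the 3′ end of Rfng and also lay within 5 kb of an end of Gps1, a subunit gene of the COP9 signalosome. The partner bin held or neighboured ends of Cbr2, Dcxr, Lrrc45 and Rac3, which encode a pair of carbonyl and sugar reductases, a centrosome protein and a small GTPase. The bin that holds the Rfng promoter, from 120780001 to 120785000, also lay within 5 kb of ends of Dus1l and Gps1. It was an anchor of 1 pixel in DKO with 21 contacts at 4.76 times expected. In WT it was an anchor of 2 pixels with 18 and 20 contacts at 3.63 and 3.88. The highest FDR was 0.0027 for the DKO pixel, and 0.0311 and 0.0417 for the WT pixels.

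Hes1 (chromosome 16, 30065357 to 30067796), a repressor gene switched on by NOTCH, had the longest contacts. It had 4 pixels in DKO and 5 in WT, over 245 to 340 kb and 170 to 340 kb. A shared loop ran from the gene toward lower coordinates to bins between 29720001 and 29740000. Its pixels had 15, 14 and 14 contacts in DKO, against 15, 19, 19 and 20 in WT. Enrichment in that loop was 4.46 to 5.04 in DKO and 5.85 to 6.50 in WT, which do not overlap between the lists, while the counting intervals of single pixels do. With the horizontal neighbourhood the ranges overlapped, at 3.43 to 4.41 in DKO and 4.04 to 4.88 in WT, and with the vertical one they met, at 4.62 to 5.53 in DKO and 5.50 to 7.27 in WT. No protein-coding gene lay between the anchors, and the gene nearest to the partner bins, 56.9 to 71.9 kb away, was Opa1, which encodes a mitochondrial fusion protein.

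The highest FDR of the DKO pixels of this Hes1 loop was 0.0517 to 0.0857, so the DKO loop was lost at an FDR under 0.01, while all 4 WT pixels stayed. At a minimum of 20 contacts no Hes1 pixel was left in DKO and 1 in WT. Besides it each list held 1 Hes1 loop without a counterpart. In DKO a pixel of 15 contacts at 4.38 times expected (2.45 to 7.23) reached 245 kb to the bin at 29815001. In WT a pixel of 17 contacts at 5.16 times expected (3.01 to 8.27) reached 170 kb in the other direction. Its partner bin at 30235001 lay 16.4 kb from Cpn2. The highest FDR was 0.0869 for this DKO pixel and 0.0133 for the WT one, so neither stayed at an FDR under 0.01.

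The outer bins of the WT contacts were themselves joined. A shared loop enclosed Hes1, over 510 kb from the bin at 29725001 to the bin at 30235001, with 17 contacts in DKO at 4.57 times expected (2.66 to 7.32) and 19 in WT at 5.64 (3.39 to 8.80). Hes1 was the only protein-coding gene between these anchors. The bin at 29725001, the adjacent bins at Hes1 and the bin at 30235001 were thus linked in all 3 pairs in WT. The WT link from Hes1 to 30235001 rested on 1 pixel, which was lost at an FDR under 0.01. In DKO the link from Hes1 to 30235001 was not listed, and the nearest DKO pixel to it was 195 kb away. The size of that difference was not measurable, because the lists hold no count for a pixel that was not called.

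Heyl (chromosome 4, 123233556 to 123249870), a HEY family repressor gene, had 1 pixel in DKO and 3 in WT, in a shared loop of 35 to 40 kb that encloses the gene. The DKO pixel had 26 contacts at 4.73 times expected (3.09 to 6.93). The WT pixels had 21, 25 and 19 contacts at 4.08, 5.31 and 3.36 times expected. The pixel with 19 WT contacts used the same bins as the DKO pixel. Its lower bin lay 8.56 kb and its upper bin 10.1 kb from the gene, so this contact flanks Heyl and entered by a gene end at one side. The lower bin was also within 5 kb of an end of Nt5c1a, a nucleotidase gene. With gene ends within 5 kb, Heyl had no pixel in DKO and 1 in WT.

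Hey1 (chromosome 3, 8663359 to 8667038), the third target gene among the members, had no pixel and no enclosing loop. The nearest anchor lay 288 kb away in DKO and 733 kb in WT, the farthest of the genes that had no pixel in either list.

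The same bins were listed in both libraries for 10 member pixels, that is 10 of the 20 in DKO and 10 of the 22 in WT (45.5%). Over all pixels the shares were 39.8% of the DKO list and 33.4% of the WT list. At Notch1 there were 3 such pixels, at Rfng 4, at Hes1 2 and at Heyl 1. In sum they held 291 contacts in DKO and 282 in WT. The DKO/WT ratio of enrichment over the 10 pixels was 1.10 (0.929 to 1.30, exact conditional binomial 95% interval). Of the 10 ratios 6 were higher and 4 lower in DKO with the donut, and between 5 and 8 were higher with the other neighbourhoods and scalings. With the donut the interval of each of the 10 included 1. Pixels called in a single list have no ratio, so this selection can favour ratios near 1.

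**Figure D3:**
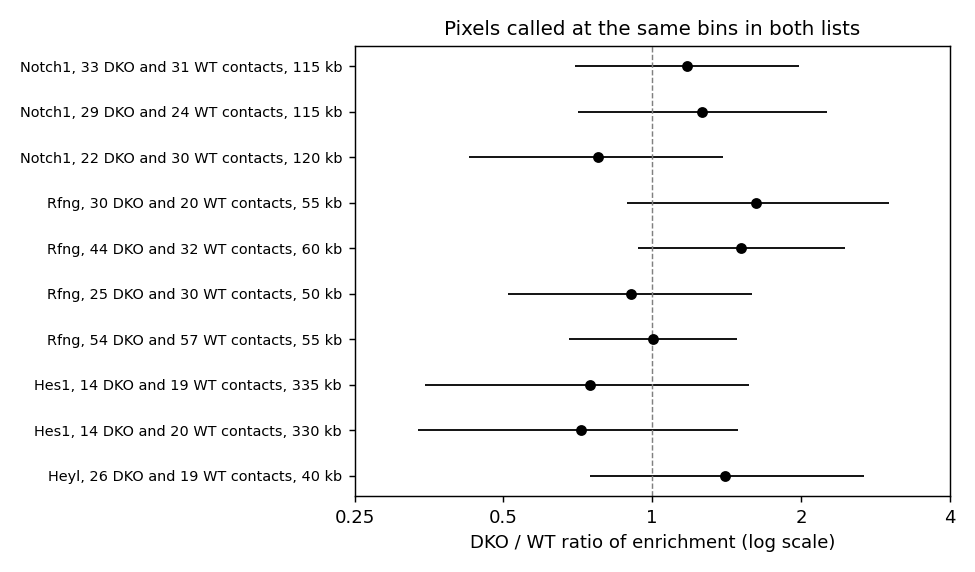
DKO/WT ratio of enrichment (log scale) at the 10 member pixels listed at the same bins in both libraries, with exact conditional binomial 95% intervals and a dashed line at 1. The ratios run from 0.717 at Hes1 to 1.62 at Rfng, and every interval, all taken with the donut, crosses 1.

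By gene, the summed ratio was 1.06 at Notch1 (0.772 to 1.45), 1.19 at Rfng (0.940 to 1.51) and 1.41 at Heyl (0.749 to 2.69). At Hes1 the ratios were 0.747 (0.347 to 1.57) and 0.717 (0.335 to 1.49). The first of these was 1.09 with the horizontal neighbourhood, so its direction was not fixed. At Rfng, 44 contacts in DKO and 32 in WT gave a ratio of 1.51 at the bins starting at 120715001 and 120775001 (0.936 to 2.46). This ratio was 1.71 with the horizontal (1.06 to 2.78) and 2.08 with the vertical neighbourhood (1.29 to 3.39), intervals that leave out 1 without adjustment for the number of pixels. At the highest Rfng pixel, with its lower bin 5 kb away, the ratio was 1.01 (0.680 to 1.49). The other pixels of the Rfng loop stood at 0.907 and 1.62, and with the vertical neighbourhood at 1.04 and 1.06. Over all 1940 pixels in both lists the log2 ratio had a median of -0.03 with quartiles of -0.25 and 0.20, and at the member pixels its median was 0.12. The bin pairs of 1 gene adjoin one another, so they are not separate measurements of that gene.

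Most partner bins had no gene end within 5 kb, with adjoining pixels of a loop counted separately. A protein-coding gene end lay within 5 kb of the partner bin at 7 of 20 DKO pixels (35.0%) and 8 of 22 WT pixels (36.4%), against 47.0% of all anchor bins in DKO and 45.2% in WT. In DKO these were the Rfng pixels and that of Jag1, and in WT the Rfng pixels and 1 of Notch1. The partners of Hes1 and Jag2 held none in any list that had them. At another 2 WT pixels, both of Heyl, the partner lay inside a gene body. With partner gene ends within 10 kb the counts were 9 of 20 in DKO and 12 of 22 in WT. No share of all anchor bins is given here for that distance.

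The list of other pathway genes held 48, all found in the gene table, of which 18 had a pixel in DKO (37.5%) and 17 in WT (35.4%), against the 20.1% and 21.2% of all genes. Of these 11 had pixels in both lists, 7 in DKO alone, 6 in WT alone, and 24 in neither. At an FDR under 0.01 there were 10 in DKO and 8 in WT. A single DKO pixel and a single WT pixel were each counted at both Hes2 (chromosome 4, 152158867 to 152162469) and Hes3 (152285250 to 152291911). Each joined a bin within 10 kb of an end of Hes2 to a bin within 10 kb of an end of Hes3.

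Among the other receptors, Notch3 had 1 pixel in DKO (19 contacts, 3.43 times expected, 2.07 to 5.36) and none in WT, and Notch4 had none. Of the 5 other ligand genes, Dlk2 had 1 pixel in DKO alone (26 contacts, 4.09, 2.67 to 5.99) and Dll3 had 1 in WT alone (17 contacts, 2.96, 1.72 to 4.74). Of 7 other target genes, 4 had pixels in DKO and 5 in WT. Hes2 had 3 pixels in DKO and 2 in WT, with the highest at 28 contacts in DKO and 30 in WT. Hes7, an oscillating repressor gene of the embryonic segmentation clock, had 2 in each list, with 35 contacts at the highest in DKO and 34 in WT. Hes3 had 1 in DKO, of 15 contacts, and 2 in WT, with up to 18.

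Lfng, the lunatic fringe gene and a relative of Rfng, had 5 pixels in DKO and 4 in WT, 3 of them at the same bins. Its highest pixel had 29 contacts in DKO at 4.96 times expected (3.32 to 7.12), against 27 in WT at 4.53 (2.98 to 6.59). Mfng, the remaining fringe gene, had none, so of the 3 fringe genes 2 had called contacts in both lists. Furin, a protease that cuts the receptor on its way to the surface, had 1 in DKO with 15 contacts and 2 in WT with up to 18.

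Psen2, a catalytic subunit of the γ-secretase that frees the intracellular part of NOTCH, had more pixels than any other gene of this list in DKO, 9, and 5 in WT. Its highest had 28 contacts in DKO at 7.49 times expected and 27 in WT at 8.23, and 3 pixels had the same bins. Adam17, a membrane protease that sheds surface proteins, had 2 pixels in DKO alone, and Aph1a, another γ-secretase subunit, 1 in WT alone. Of the coactivator genes of the Mastermind family, Maml2 and Maml3 had 1 pixel in each list, for neither gene at the same bins, and Maml1 had 1 in DKO alone. The Maml2 pixels had 12 contacts in each list on expected counts so low that enrichment was 19.5 in DKO (10.1 to 34.1) and 18.8 in WT (9.70 to 32.8).

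Of the genes of trafficking and turnover, Neurl1a, a ubiquitin ligase gene whose fly relative acts on Delta, had 6 pixels in each list, 4 at the same bins. Dtx2, a Deltex gene, had 3 in each, and Neurl1b 1 in each. Over the other pathway genes 14 pixels at 6 genes had the same bins in both lists, 6 higher and 8 lower in DKO with the donut, with DKO/WT ratios from 0.551 to 1.20. The interval of 1 pixel left out 1, without adjustment for their number. It was the Neurl1a pixel from 47120001 to 47165001 on chromosome 19, with 22 contacts in DKO and 37 in WT (0.551, 0.310 to 0.960). Its interval also left out 1 with the other 3 neighbourhoods but not for the raw ratio of counts (0.595) or that scaled by the median expected ratio (0.611), settings chosen for these genes after seeing the data. The neighbouring pixel with its lower bin at 47125001 had a ratio of 0.869 (0.454 to 1.66).

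**Figure D4:**
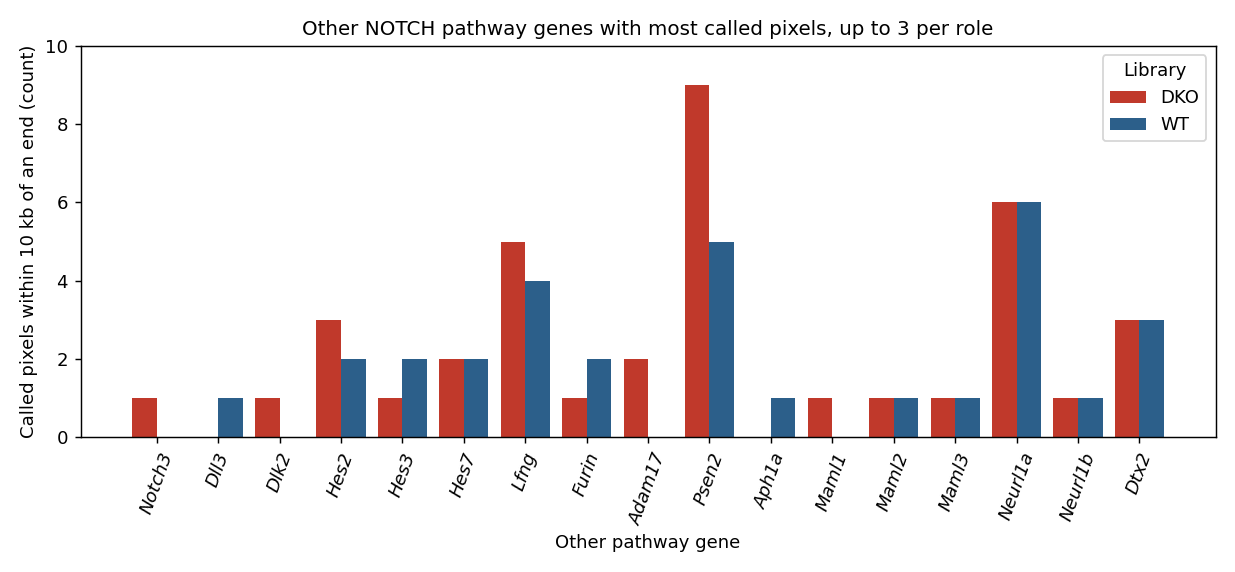
Number of called pixels within 10 kb of a gene end for the 17 other pathway genes with most pixels, up to 3 per role, DKO in red to the left of WT in blue, ordered by role from receptors to turnover genes. Psen2 has 9 pixels in DKO and 5 in WT, Neurl1a has 6 in each, and 6 of the 17 genes have bars in a single list.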

How the data were processed

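Hi-C contacts were analysed in 1 DKO and 1 WT library, grouped by the genotype labels. The authors' lists come from juicer_tools 1.22.01, per the file headers. The build is GRCm38 (mm10), and Juicer is the tool named, per the submitters' processing notes. Aligner, read filters and depth: not given in the sources used here. Per the file headers, the authors deposited for each pixel the observed contact count, the expected contacts as a signal from 4 neighbourhoods, a score that numbers the class of each expected count, and a q-value (FDR) per neighbourhood, all under 0.1. The lists hold called pixels alone, so their length and sums depend on the calling threshold and are not a depth.

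Gene positions came from RefSeq (GRCm38.p6), which has the coordinates of the lists' build. A pixel was assigned to a gene with an end within 10 kb of an anchor bin, and to partner genes within 5 kb. Genes between anchors are those that lie wholly between them. Pixels with both anchors within 20 kb were joined into loops, and a loop was shared where a pixel of the other list lay within 2 bins at both anchors. With 1 library per genotype no test was run. Intervals are exact 95% intervals of counts that take expected counts as fixed. The steps were tested on simulated data. All 9 members are named; so are the genes at the partner bin of each loop's highest pixel, and up to 3 other pathway genes per role, those with most pixels. Genes named as nearest, enclosed or sharing a member's bin were added after their values were seen. The members and lists were chosen with earlier results of these data known. Alternatives were other distances to gene ends, an FDR under 0.01, at least 20 contacts, other joining and matching distances, other expected counts and other scalings. Python 3.11.15, pandas 2.3.3, numpy 2.4.6, scipy 1.17.1 and matplotlib 3.10.9 were used. Coordinates are 1-based.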

Additional observations from a re-analysis of the deposited data

How the results depend on the processing

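No paired analysis was possible because there is a single DKO library and a single WT library, without numbered replicates, and no replicate could be left out. Of the recomputed values that answer a comparison, 66 stayed close to the reported value and 23 moved, most of them counts that changed by over 1.5 times. With the donut the interval of every member ratio included 1, and the direction of some ratios changed with other settings. A Hes1 ratio, for example, was 0.747 with the donut and 1.09 with the horizontal neighbourhood. Several other values changed, and some differences between DKO and WT turned or became ties. With gene ends inside the anchor bin, member pixels numbered 6 in DKO and 6 in WT, other pathway genes with a pixel 6 and 6, loops 4 in DKO and shared loops 3 in each list, and the median span was 197.5 kb in DKO and 115 kb in WT. With ends within 5 kb, DKO had 16 member pixels and WT 14, against the reported 20 and 22. At an FDR under 0.01, DKO kept 3 members and 4 loops and WT 4 members and 4 loops, against the reported 6 and 4 members and 8 and 6 loops, pixels numbered 11 and 11, shared loops 3 and 3, and other pathway genes 10 in DKO and 8 in WT. At 20 or more contacts, DKO had 3 members and 4 loops, and WT had 4 members, 5 loops, 9 other pathway genes and a median span of 57.5 kb. With gene ends inside the partner bin, 4 DKO and 5 WT partners held one. The fall in these counts follows from the narrower rules, which leave fewer pixels. The summed DKO/WT ratio stayed between 1.03 and 1.17 under the other expected counts and scalings. Higher ratios in DKO numbered 8 of 10 with the horizontal, 7 with the vertical and 5 with either scaling, and median enrichment turned with the vertical (4.16 in DKO, 3.79 in WT) and bottom-left neighbourhoods (4.61, 4.58). Low counts, 13 to 20 contacts at Jag1, Jag2 and Hes1, limit what these genes can show.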

Other observations

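The other pathway genes given here were chosen after their values were seen. Hes6 had 2 pixels in DKO, with 20 contacts at the highest, and none within 10 kb in WT, although a WT pixel lay within 2 bins of one of them. Hey2, of the same family as Hey1 and Heyl, had 1 pixel in WT alone, over 465 kb, with 14 contacts at 8.69 times expected (4.75 to 14.6). Nrarp, a feedback inhibitor gene induced by NOTCH, had 1 WT pixel of 20 contacts at 3.24 times expected (1.98 to 5.01) and no DKO pixel. Dtx4 had 1 pixel in DKO, with 14 contacts, and none within 10 kb in WT, although a WT pixel lay within 2 bins of it. Aph1b and Itch each had 1 in WT alone, with 15 contacts apiece.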
